A study of Drosophila melanogaster with 24 samples.

Results

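Transcript abundance was compared between males of the 2 lines selected for resistance to alcohol (R1 and R2) and males of the 2 lines selected for sensitivity (S1 and S2). The comparison rests on 8 of the 24 arrays of the series, taken by the line and sex in the sample labels, with 2 arrays for each of the 4 lines. Each array measured RNA from the whole bodies of a pool of 15 virgin males that were 3 to 5 days old, at generation 25. The labels add that all flies had met ethanol vapor before RNA extraction, a step that the study's array methods leave out. All lines descend from 1 base population of isofemale lines from Raleigh. Lines numbered 1 were started from one replicate of that population and lines numbered 2 from the other, so that R1 against S1 and R2 against S2 are separate runs of the same selection. The other arrays were males of the unselected control lines C1 and C2 (4 arrays) and females of all 6 lines (12 arrays). With 2 lines for each direction of selection and 2 pools for each line, differences that arose by chance in 1 line and differences due to selection cannot be told apart.

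In divergent selection, flies at each end of a trait become the parents of the next generation, and alleles that affect the trait can change in frequency along with alleles linked to them and alleles that drift. *Drosophila melanogaster* feeds and breeds on fermenting fruit. It oxidizes ethanol to acetaldehyde with alcohol dehydrogenase and to acetate with aldehyde dehydrogenase, and acetate can enter the synthesis of lipids. Cytochrome P450s, glutathione S-transferases and UDP-glycosyltransferases are the enzyme families that modify and conjugate many other toxic compounds. The sensitivity of a fly to ethanol vapor is also known to depend on neural genes, among them genes of cAMP signalling, ion channels and synaptic proteins.

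The values are the Signal of each probe set, an intensity on a linear scale. A probe set was tested if its Signal was at least 50 on at least 12 of the 24 arrays, and values under 1 were set to 1. Differences are the mean log2 Signal of the resistant lines minus that of the sensitive lines, ± the standard error, with 4 arrays in each group, so that a difference of 1 is a doubling. The error comes from the spread between RNA pools within all 12 groups of line and sex, so female pools enter the error of the differences in males. Replicate pools were over 2-fold apart for 946 to 1479 probe sets in females and 186 to 290 in males. Adjusted p-values are from limma over 11857 tested probe sets. On the 8 arrays the median Signal was 130.9 to 149.8, and the pools of a line correlated at 0.98 to 0.99 across tested probe sets. Markers of the male reproductive tract were far brighter in males than in females, except *Acp95EF* (163.1 to 489.4 in males and 68.5 to 133.4 in females). The summed Signal of all 13 overlapped between the groups (111500 to 122400 in resistant and 94620 to 130900 in sensitive males). In the same pools, 14 markers of female tissues summed to 700.7 to 816.4 in resistant and 655.3 to 839.3 in sensitive males. The 3 flight muscle markers varied more, also between pools of 1 line, with sums of 4511 to 22320 and 10840 to 50460. In whole bodies, fewer cells of a type and less RNA per cell cannot be told apart.

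Of the 11857 tested probe sets, 867 (7.31%) differed between resistant and sensitive males, which required an adjusted p under 0.001 for the effect of line or for its interaction with sex, and then p under 0.05 for the contrast of the groups within males. Of these, 524 (4.42%) were higher in the resistant males and 343 (2.89%) were lower. Differences were mostly small. The median size was 0.51 on the log2 scale, 422 were under 0.5 and 134 were above 1, of which 83 were higher and 51 lower. Of the 867, 600 also had an adjusted p under 0.05 in the contrast itself, which 9.15% of all tested probe sets had. The number of calls was 462 (295 higher and 167 lower) when S2 was left out, and it lay between 607 and 1177 when R1, R2 or S1 was left out. In a fit with line as a random block, which takes the spread between lines into the error, 58 probe sets (0.489%) passed an adjusted p of 0.05 with no first step (37 higher and 21 lower), against 1085 at the same threshold without the block, and 45 of the 58 were among the 867.

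Both resistant means lay on 1 side of both sensitive means for 485 of the 867 probe sets (4.09% of those tested), 314 higher (2.65%) and 171 lower (1.44%). That order alone, with no test, was met by 34.9% of all tested probe sets. The 4 resistant and 4 sensitive arrays did not overlap for 305 of the called probe sets (2.57%), against 10.5% of all tested probe sets without any test. When both line pairs were taken alone, 233 of the 867 differed at p under 0.05 in the same direction in both, 226 only between R1 and S1, 340 only between R2 and S2, and 52 in opposite directions. Over all tested probe sets, 19.1% differed at that p between R1 and S1 and 23.5% between R2 and S2.

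**Figure D1:**
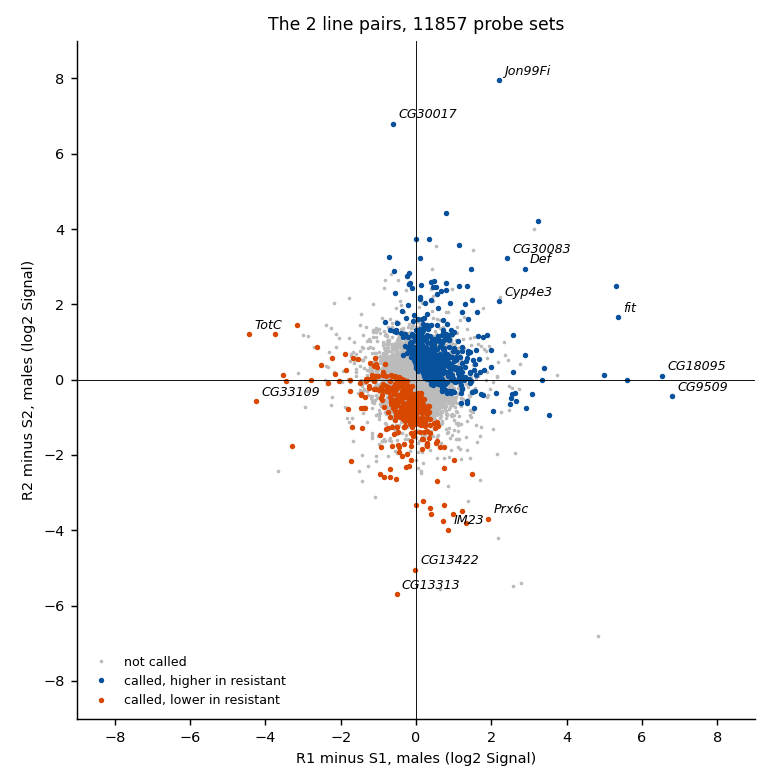
The difference between R2 and S2 males (vertical axis, log2 Signal) against that between R1 and S1 males (horizontal axis, log2 Signal) for 11857 probe sets, with the 867 called ones in blue (higher in the resistant males) or orange (lower). Many called points lie near 1 of the axes, and *Def*, *CG30083* and *Cyp4e3* are among those where both differences are above 2.

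Across the 11857 probe sets, the differences of the pairs (R1 minus S1, R2 minus S2) were correlated at 0.001 and shared their sign in 49.4%, and their standard deviations were 0.474 and 0.530. Probe sets are not independent replicates, and the pairs share no array. The line means of S1 and S2 males were over 2-fold apart for 615 probe sets, those of R1 and R2 for 378, those of R1 and S1 for 461 and those of R2 and S2 for 581. The sensitive lines thus differed from each other for more probe sets, by this measure, than either did from the resistant line of its own number. When each line counted as 1 value, with 2 resistant against 2 sensitive means, no probe set passed an adjusted p of 0.05 in limma. The smallest was 0.396, and 654 (5.52%) had an unadjusted p under 0.05. An exact permutation test over 2 against 2 lines cannot go below p = 0.333.

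The largest difference was that of *Jon99Fi* on chromosome arm 3R, one of the Jonah genes, which encode chymotrypsin-like proteases of the midgut. Its Signal was 15698 and 12829 in R1, 6794 and 5472 in R2, 4057 and 2364 in S1, and 37.4 and 16.4 in S2. Every resistant array was above every sensitive one, and S2 was below the filter level of 50. The difference was 5.07 ± 0.21 (adjusted p = 4.01e-10), with 2.20 between R1 and S1 and 7.95 between R2 and S2. Without S2 it was 1.59, and it was still called. The 2 line pairs differed in size (adjusted p = 5.47e-07). Both control lines, at 4602 and 4495 in C1 and 6512 and 6276 in C2, were above both sensitive lines. *Jon99Fi* has a close paralog beside it, so the probes may measure both.

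Other digestive proteases were higher as well. Of 26 tested genes, 9 were higher in the resistant males and 1 was lower, and the median difference was 0.28, beside 0.03 over 9847 genes, of which 425 were higher and 280 lower. *Jon66Ci* had a Signal of 174 and 202 in R1, 854 and 381 in R2, 115 and 102 in S1, and 27.3 and 26.1 in S2. Its arrays did not overlap, and the difference of 2.61 ± 0.22 (adjusted p = 1.35e-06) was 1.60 without S2 and still called. *Jon44E*, at 1899 and 1699 in R1, 1181 and 1428 in R2, 1621 and 1705 in S1, and 134 and 142 in S2, was low in S2 alone. Its difference was 1.67 ± 0.10 (adjusted p = 5.22e-08), 0.11 for R1 and S1 and 3.23 for R2 and S2. *Jon25Bii* showed 0.65 and 2.36 for the line pairs and 1.50 ± 0.29 over both (adjusted p = 0.00301), and it was not called without S2 (0.48). In 8 of the 9 genes that were higher the difference between R2 and S2 was the larger one, and *Jon74E* was the exception (1.29 and 0.05). The lower gene was *Ser7* (-0.51 ± 0.14, adjusted p = 0.0281), which was high in S2. Without S2 the count fell to 4 higher and 0 lower, and with line as a random block to 1 higher (*Jon66Ci*) and 0 lower. All 12 tested carbohydrases of the gut, among them amylases and maltases, missed the threshold, with a median of 0.07. That median describes neither pair, since it was 0.43 for R1 minus S1 and -0.27 for R2 minus S2. The pairs had opposite signs in 10 of the 12 genes. Without S2, 3 were called higher and 1 lower, and with only the 8 male arrays in the fit 2 were higher.

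**Figure D2:**
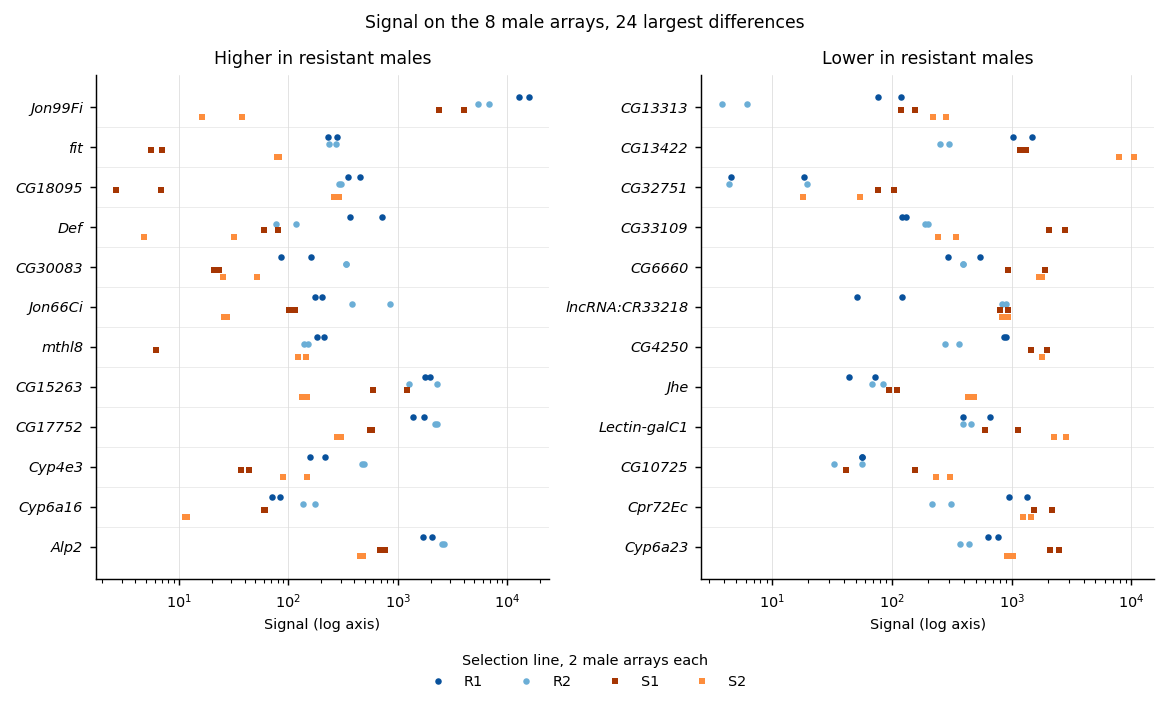
Signal (horizontal, log axis) on the 8 male arrays for 12 genes at the positive end and 12 at the negative end of the differences, among those whose line means lay on 1 side, with circles for resistant and squares for sensitive lines. In 15 of the 24 genes the arrays of the groups did not overlap, and single lines stand apart in several, such as S2 in *Jon99Fi* and R1 in *lncRNA:CR33218*. The choice by line means favours such genes. Arrays did not overlap for 305 of the 485 called probe sets with that order, and for 10.5% of all tested probe sets.

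The enzymes of detoxification moved in both directions. Among cytochrome P450s, 8 of 70 tested genes were higher and 8 lower (22.9%, beside 7.16% of all genes tested), with a median of 0.06. Without S1 the counts were 11 and 13. *Cyp4e3* had a Signal of 215 and 157 in R1, 496 and 477 in R2, 43.5 and 36.9 in S1, and 89.4 and 147 in S2. No resistant array was as low as any sensitive one. The difference of 2.14 ± 0.18 (adjusted p = 1.35e-06) was of like size in the pairs, 2.20 and 2.09, and it was called without each line in turn, at 1.38 to 2.90. *Cyp6a23* was lower in both resistant lines. It had a Signal of 765 and 639 in R1, 373 and 443 in R2, 2504 and 2103 in S1, and 1026 and 914 in S2, and the groups did not overlap. Its difference was -1.48 ± 0.09 (adjusted p = 7.55e-08), -1.72 and -1.25 for the pairs, and both resistant lines were below the controls, which had 2272 and 2000 in C1 and 2999 and 2986 in C2 and overlapped S1.

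Of the 16 called P450s, 4 higher and 5 lower ones had both resistant means on 1 side of both sensitive means. In others 1 line stood out. *Cyp6a2*, which metabolizes insecticides, had a Signal of 1344 and 1416 in R1, 597 and 655 in R2, 1166 and 986 in S1, and 7137 and 6284 in S2. It was high in S2 alone, with 0.36 for R1 and S1 and -3.42 for R2 and S2. The pooled difference of -1.53 ± 0.12 (adjusted p = 8.82e-07) was -0.21 and not called without S2. *Cyp6a16* was lowest in S2, at 84.7 and 70.6 in R1, 176 and 135 in R2, 59.8 and 61.4 in S1, and 11.4 and 11.8 in S2. Its difference was 2.04 ± 0.47 (adjusted p = 0.0109), 0.97 on the scale of log2(Signal + 50), and the call was lost in 5 of the 24 fits that left out 1 array (R2 male replicate 1, S2 male replicates 1 and 2, S2 female replicate 2 and C2 male replicate 2), with values of 1.95 to 2.14 over the 24, and it was also lost without R1 (2.54) and without S2 (0.85).

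Glutathione S-transferases, which conjugate toxic and oxidized compounds to glutathione, were called higher in 7 of 32 genes and lower in 1 (*GstE5*, -0.49 ± 0.10, adjusted p = 0.00458), with a median of 0.07. Called genes made up 25% of that list, beside 7.16% of all genes tested. *GstD9* had a Signal of 2095 and 2115 in R1, 1282 and 1314 in R2, 1279 and 1273 in S1, and 645 and 417 in S2. Its resistant arrays were all above the sensitive ones, though R2 and S1 nearly met. The difference was 1.02 ± 0.09 (adjusted p = 4.44e-06), and the pairs gave 0.72 and 1.32. *GstE7*, at 1265 and 1200 in R1, 2047 and 2104 in R2, 1613 and 1205 in S1, and 381 and 330 in S2, was low in S2 alone, with -0.18 for R1 and S1 and 2.55 for R2 and S2 (pooled 1.19 ± 0.11, adjusted p = 4.93e-06, and 0.20 without S2, where it was not called). The calls of *GstE14* (0.91 ± 0.27) and *GstD2* (0.57 ± 0.22) were lost in 19 and 20 of the 24 fits that left out 1 array, in which the values ran from 0.73 to 1.10 and from 0.37 to 0.77. The count of higher genes was 3 to 7 over those fits and 4 without S2, and it was 3 higher and 2 lower without R1.

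UDP-glycosyltransferases, which add sugars to small lipophilic compounds, were higher in 4 of 25 genes and lower in 1 (median 0.14). Called genes were 20% of them, beside 7.16% of all genes tested. *Ugt49C1* had a Signal of 233 and 280 in R1, 99.4 and 135 in R2, 495 and 483 in S1, and 404 and 403 in S2. It was lower in both resistant lines without overlap, with a difference of -1.37 ± 0.14 (adjusted p = 1.45e-05), -0.93 and -1.80 for the pairs. *Ugt50B3* was higher in both, with 1.23 and 0.76 for the pairs and 0.99 ± 0.21 over both (adjusted p = 0.00572). It was not called without R2 (0.75) or without S2 (1.47). *Ugt301D1* (0.64 ± 0.13, adjusted p = 0.0057) was lowest in S1, and it was -0.02 without that line and not called. *Ugt37D1* (0.53 ± 0.16) missed an adjusted p of 0.05 (0.0514), and its call was lost in 20 of the 24 fits that left out 1 array, in which its value ran from 0.46 to 0.60.

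**Figure D3:**
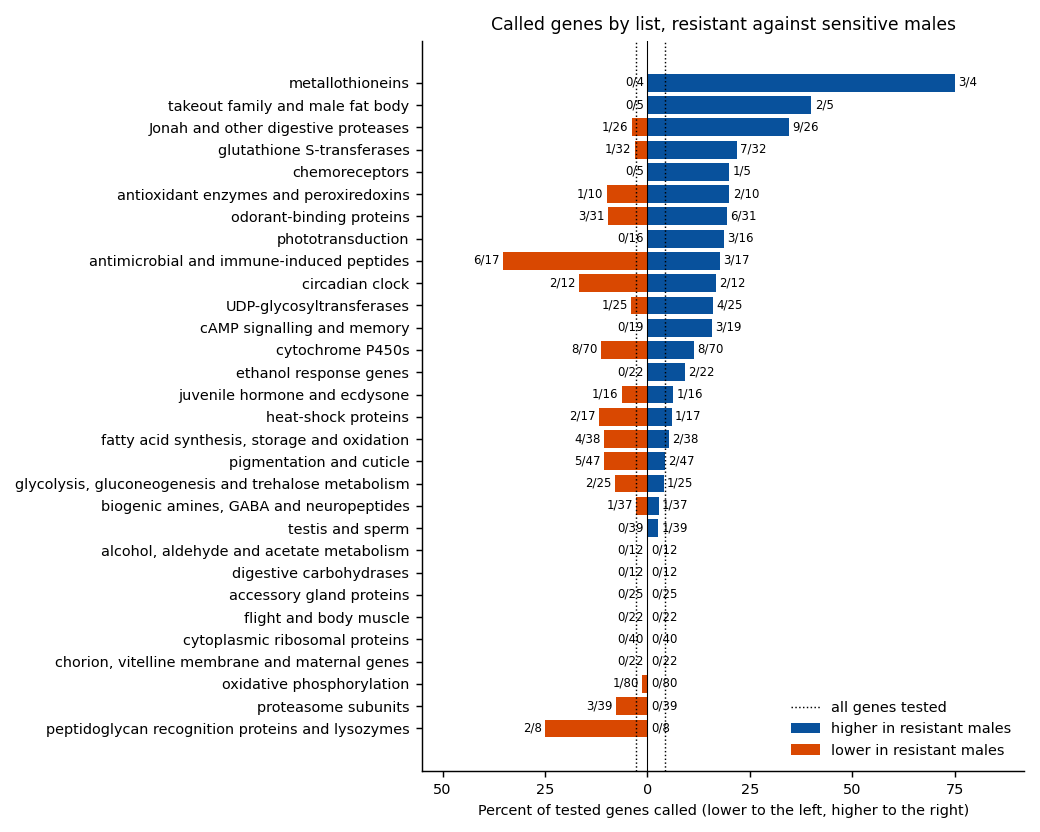
Percent of the tested genes of each list that were called higher (bars to the right) or lower (bars to the left) in resistant than in sensitive males, with the number called and the number tested, for the 30 lists with at least 4 tested genes. Dotted lines mark the shares over all genes tested, and metallothioneins (3 of 4 higher), the fat body list (2 of 5 higher) and digestive proteases (9 of 26 higher) reach farthest right.

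Metallothioneins, small proteins that bind copper, zinc and cadmium, were higher in 3 of 4 genes (75%, beside 7.16% of all genes tested). The median difference over the 4 was 1.00. *MtnD* had a Signal of 4305 and 3865 in R1, 3516 and 2887 in R2, 2396 and 1747 in S1, and 1119 and 1577 in S2. All 4 resistant arrays exceeded the sensitive ones, and the difference was 1.13 ± 0.15 (adjusted p = 0.000139), 1.00 and 1.26 for the pairs. *MtnB*, at 712 and 630 in R1, 217 and 147 in R2, 199 and 144 in S1, and 90.2 and 119 in S2, differed by 1.39 ± 0.20 (adjusted p = 0.000297). R1 was well above all other lines, and R2 overlapped S1 by 1 array. *MtnC*, at 12644 and 11954 in R1, 7207 and 5955 in R2, 7615 and 5900 in S1, and 3255 and 3956 in S2, differed by 0.87 ± 0.15 (adjusted p = 0.00156), with nearly the same value in both pairs (0.88 and 0.87) but with R2 and S1 at like levels. *MtnA*, the fourth gene, had a Signal of 21233 to 26515 in resistant and 20104 to 24732 in sensitive males and differed by 0.05 ± 0.10 (adjusted p = 0.868). Without R1 the calls of *MtnB* (0.43) and *MtnC* (0.42) were lost, without S2 that of *MtnD* (0.82), and in each fit that left out 1 array all 3 were called.

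Many genes of the immune response ran in opposite directions in the line pairs. Antimicrobial and immune-induced peptides were higher in 3 of 17 tested genes and lower in 6 (52.9%, beside 7.16% of all genes tested). The median was 0.64 for R1 minus S1 and -1.68 for R2 minus S2, so that the pooled median of -0.33 describes neither pair. The pairs had opposite signs in 12 of the 17 genes and in 5 of the 9 called ones, and *Def* and *BomBc2* were among those of like sign. *Mtk*, which encodes the antifungal peptide metchnikowin, had a Signal of 3241 and 5106 in R1, 1170 and 688 in R2, 1631 and 2595 in S1, and 10586 and 10643 in S2. S2 was above every other array, and R2 was lowest. The pairs gave 0.98 and -3.56 and differed from each other (adjusted p = 0.00571), and the pooled -1.29 ± 0.47 had an adjusted p of 0.106 and was not called without R2 (-0.20) or without S2 (-0.11). *BomBc2*, which encodes a Bomanin peptide of the Toll response, had 4658 and 5537 in R1, 4053 and 3790 in R2, 6535 and 5609 in S1, and 14155 and 16582 in S2. Its arrays did not overlap, with a difference of -1.11 ± 0.17 (adjusted p = 0.000512), -0.25 and -1.97 for the pairs, and -0.44 without S2. *BomT2* was high in S2 only, and its -0.95 ± 0.19 (adjusted p = 0.00416) became 0.00 without S2. With S2 left out, no member of the list was called. With only the 8 male arrays in the fit, 0 were higher and 9 lower. The methods' analysis of variance on Signal gave 0 higher and 7 lower.

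*Def*, the gene of defensin, was higher in the resistant males, with a Signal of 367 and 716 in R1, 118 and 76.6 in R2, 60.5 and 80.1 in S1, and 32 and 4.79 in S2. R1 was the highest and S2 the lowest, while R2 and S1 overlapped. The difference of 2.91 ± 0.61 (adjusted p = 0.00557) was 1.68 on the log2(Signal + 50) scale, and it was 1.66 without S2 and not called. The call of *Def* was also lost with only the 8 male arrays in the fit, with line as a random block and in the analysis of variance on Signal. *AttA*, the gene of an attacin, which was singled out after its values were seen, had 759 and 1984 in R1, 65.9 and 43.6 in R2, 72.5 and 230 in S1, and 2.13 and 3.95 in S2. Its difference was 3.73 ± 0.51 (adjusted p = 0.000188) with 3.25 and 4.21 for the pairs, although R2 and S1 overlapped, and without S2 it was 0.99 and not called. *IM23*, another immune-induced gene, had 601 and 1651 in R1, 555 and 341 in R2, 525 and 578 in S1, and 7065 and 6685 in S2. The pairs ran in opposite directions, 0.85 and -3.98 (difference of the pairs 4.84 ± 0.69, adjusted p = 0.00037). Peptidoglycan recognition proteins and lysozymes were lower in 2 of 8 genes (25%, beside 7.16% of all genes tested) and higher in none. These were *LysP* (-0.996 ± 0.127, adjusted p = 0.000111), which was low in R1, and *PGRP-SB1* (-0.58 ± 0.26, adjusted p = 0.21), whose call was lost in 9 of the 24 fits that left out 1 array (-0.77 to -0.39).

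**Figure D4:**
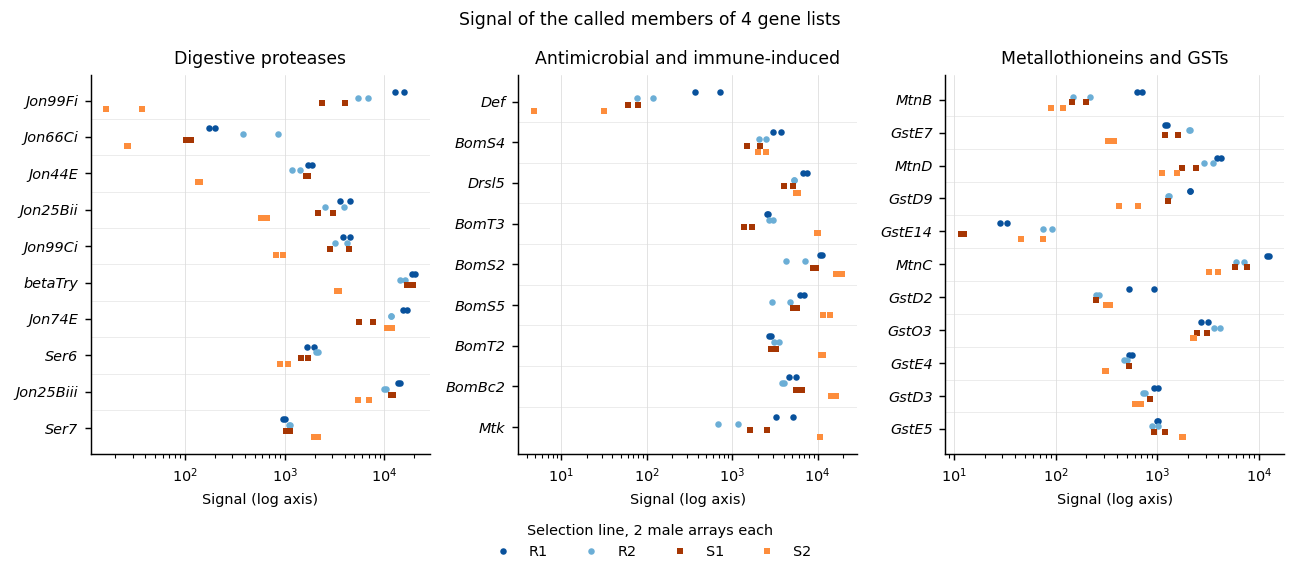
Signal (horizontal, log axis) on the 8 male arrays for the called digestive proteases, the called antimicrobial and immune-induced peptides, and the called metallothioneins and glutathione S-transferases, with circles for R1 and R2 and squares for S1 and S2. S2 is lowest in most proteases and highest in *Mtk* and most Bomanins, whereas the 3 metallothioneins show R1 highest and S2 lowest.

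Most enzymes that act on ethanol and its products differed little, and *Aldh* was the exception. None of the 12 tested genes of alcohol, aldehyde and acetate metabolism in the list was called, and the differences ran from -0.35 to 0.19. Without S2, 2 were called higher, and 1 was called lower without R1 and also without S1. After quantile normalization 1 was higher. *AcCoAS*, which encodes the acetyl-CoA synthetase that activates acetate, had a mean Signal of 8029 ± 210 (SD, n = 4) in resistant and 7979 ± 1021 (SD, n = 4) in sensitive males and differed by 0.02 ± 0.07 (adjusted p = 0.965). A probe set that the annotation gives to both *Adh* and its neighbour *Adhr*, and so to neither alone, had a Signal of 20365 and 24591 in R1, 19775 and 19327 in R2, 22639 and 23556 in S1, and 15596 and 22135 in S2. The groups overlapped and the difference was 0.01 ± 0.13 (adjusted p = 0.99). *Aldh*, the aldehyde dehydrogenase gene, was paired with its probe set only through the study's own tables and stands outside the list. It had a Signal of 11231 and 10546 in R1, 9297 and 8343 in R2, 5523 and 5109 in S1, and 7083 and 6905 in S2. Every resistant array was above every sensitive array, and the difference was 0.68 ± 0.09 (adjusted p = 0.000129), 1.03 and 0.33 for the pairs. It was called without each array and each line in turn, at 0.48 to 0.88, but it did not pass with line as a random block. In control males the values of 6239 and 5905 in C1 and 8357 and 7119 in C2 gave line means above that of S1 and below those of both resistant lines.

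Of 22 tested genes with a known role in the response of flies to ethanol, 2 were called higher and 0 lower, with a median of 0.08. That share, 9.09%, was near the 7.16% of all genes tested. These were *Syn* (0.43 ± 0.13, adjusted p = 0.0536), which encodes the vesicle protein synapsin, and *scb* (0.39 ± 0.12, adjusted p = 0.0584), an integrin gene. Both were lower in S2 than in the other lines, and without S2 they were -0.10 and 0.02 and not called. The call of *scb* was lost in 20 of the 24 fits that left out 1 array (0.34 to 0.43). *lush*, whose product is an odorant-binding protein needed for the response to alcohol odors, had 617 and 723 in R1, 634 and 510 in R2, 405 and 386 in S1, and 360 and 381 in S2. The groups did not overlap and the contrast had an adjusted p of 0.00663 (0.69 ± 0.15, with 0.75 and 0.62 for the pairs), but the line effect missed the first threshold, so that it is not among the 867. *nuf*, with 0.26 ± 0.07 (adjusted p = 0.0291), missed it as well. *slo* (0.27 ± 0.13), the gene of a calcium-activated potassium channel, *hang* (0.07 ± 0.16), a nuclear zinc finger gene, and *RhoGAP18B* (-0.25 ± 0.10) had adjusted p-values of 0.243, 0.913 and 0.133.

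Of the neural lists, cAMP signalling and memory had 3 of 19 genes higher and 0 lower (median 0.18). Called genes were 15.8% of it, beside 7.16% of all genes tested. *Ac13E*, an adenylyl cyclase gene, had 842 and 891 in R1, 1088 and 1025 in R2, 758 and 862 in S1, and 498 and 524 in S2. S2 was lowest and the other lines were close, so that the difference of 0.57 ± 0.13 (adjusted p = 0.00844) was 0.24 and not called without S2. The other 2 were *scb* and *Ac76E*, a second adenylyl cyclase gene (0.22 ± 0.10, adjusted p = 0.193), whose call was lost in 7 of the 24 fits that left out 1 array (0.18 to 0.26). Among amine, GABA and neuropeptide genes 1 of 37 was higher, *VAChT* (0.44 ± 0.12, adjusted p = 0.0378), and 1 was lower, *Octbeta1R* (-0.50 ± 0.23, adjusted p = 0.209), and their calls were lost in 15 and 10 of those fits. The called share of that list, 5.41%, was below that of all genes tested. *Vmat*, the vesicular transporter of monoamines, has 3 tested probe sets and was singled out after its values were seen. One had a Signal of 278 and 247 in R1, 415 and 509 in R2, 76.8 and 115 in S1, and 131 and 86.8 in S2 and differed without overlap by 1.79 ± 0.33 (adjusted p = 0.00244). The other two gave 0.03 ± 0.17 (adjusted p = 0.981) and 0.64 ± 0.25 (adjusted p = 0.146), so the probe sets of this gene disagree. The first was not called without R2 (1.39) or without S2 male replicate 2.

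Odorant-binding proteins were higher in 6 of 31 genes and lower in 3 (29%, beside 7.16% of all genes tested), with a median of 0.06. *Obp19a* had a Signal of 1070 and 1254 in R1, 1020 and 923 in R2, 702 and 644 in S1, and 393 and 451 in S2. All resistant arrays were above all sensitive ones, by 0.99 ± 0.11 (adjusted p = 3.88e-05), 0.78 and 1.20 for the pairs, and a second probe set gave 0.83. *Obp19d*, its neighbour on the X chromosome, had 11771 and 13483 in R1, 11595 and 11268 in R2, 8329 and 9434 in S1, and 6043 and 6991 in S2 and again no overlap, with 0.66 ± 0.10 (adjusted p = 0.000509). *Obp83b* differed by 0.61 ± 0.12 (adjusted p = 0.00354). *Obp19a* was called without each line, whereas the calls of *Obp19d* and *Obp83b* were lost without R1 (0.59 and 0.58) and without S2 (0.44 and 0.45), and that of *Obp83b* also without S2 male replicate 1, S2 male replicate 2 or S2 female replicate 2. Among the lower ones was *Obp56a* (-0.57 ± 0.15, adjusted p = 0.0206), which was high in S1 and was not called without S1 (-0.09) or without R2 (-0.45). Without S2 the counts of the list were 2 higher and 3 lower. Few chemoreceptor genes reached the filter, and 1 of 5 (20%) was called. *Ir76a*, an ionotropic receptor gene, had 226 and 240 in R1, 104 and 143 in R2, 74.9 and 73.4 in S1, and 45.5 and 65.1 in S2, with no overlap and a difference of 1.41 ± 0.25 (adjusted p = 0.00158).

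Among genes of the eye, phototransduction had 3 of 16 genes higher and 0 lower (18.8%, beside 7.16% of all genes tested). *inaD*, a scaffold protein gene, and *trpl*, a light-activated channel gene, differed by 0.45 ± 0.09 (adjusted p = 0.00598) and 0.44 ± 0.09 (adjusted p = 0.004) without overlap, and *inaC*, a protein kinase C gene, by 0.21 ± 0.08 (adjusted p = 0.0965). *inaD* was not called without S2 (0.51), *trpl* not without R2 (0.22), and *inaC* not without either of these lines or without R2 male replicate 2. The summed Signal of 6 eye markers, which include these 3, was 38940 to 40740 in resistant and 33240 to 39820 in sensitive males. The part of eye tissue in the other results was not tested.

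The circadian clock list had 2 of 12 genes higher and 2 lower (33.3%, beside 7.16% of all genes tested). *Pdp1*, an activator in the second loop of the clock, had 1078 and 1162 in R1, 1064 and 1229 in R2, 669 and 693 in S1, and 498 and 295 in S2. No resistant array overlapped a sensitive one, the difference was 1.15 ± 0.14 (adjusted p = 8.71e-05), and both resistant lines also lay above the controls, which had 613 and 700 in C1 and 532 and 376 in C2. *Clk*, the gene whose promoter Pdp1 protein activates, had 609 and 761 in R1, 1310 and 1415 in R2, 365 and 458 in S1, and 826 and 882 in S2, with 0.74 and 0.67 for the pairs and 0.71 ± 0.15 over both (adjusted p = 0.00714). Lines numbered 2 were higher than lines numbered 1 in both selection groups, and the call was lost without R2 (0.20) or S1 (0.17). *tim* (-0.28 ± 0.07, adjusted p = 0.0267) and *cwo* (-0.23 ± 0.10, adjusted p = 0.168), which encode repressors of the clock, had differences of opposite sign in the pairs, 0.31 and -0.87 for *tim* and 0.30 and -0.76 for *cwo*. Second probe sets were not called, with 0.04 and -0.83 for *tim* and -0.39 and -0.54 for *cwo*, so that those of *cwo* disagree between R1 and S1. The hour at which the males were collected is not given in the sources used here.

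Genes of fat and carbohydrate metabolism showed a few differences. Fatty acid synthesis, storage and oxidation had 2 of 38 genes higher and 4 lower (15.8%, beside 7.16% of all genes tested), with a median of -0.16. *FASN2*, a fatty acid synthase gene, had 1542 and 979 in R1, 1527 and 1526 in R2, 1932 and 1744 in S1, and 4392 and 3985 in S2. It was lower in the resistant males without overlap, with -1.02 ± 0.14 (adjusted p = 0.00017), but S2 was far above S1 and without S2 the value was -0.42 and not called. *Lsd-2*, which encodes a perilipin on lipid droplets, had 5147 and 5239 in R1, 4346 and 4452 in R2, 2331 and 2146 in S1, and 3849 and 3863 in S2. It was higher without overlap, by 0.70 ± 0.07 (adjusted p = 6.15e-06), and mostly through S1, with 1.22 and 0.19 for the pairs. *CG6660*, of the fatty acid elongase family, had 545 and 292 in R1, 392 and 390 in R2, 1885 and 941 in S1, and 1787 and 1696 in S2. Its -1.95 ± 0.30 (adjusted p = 0.000512) was alike in both pairs (-1.74 and -2.15), and the groups did not overlap, but the call was lost in 14 of the 24 fits that left out 1 array, in which its value stayed between -2.20 and -1.70.

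Glycolysis, gluconeogenesis and trehalose metabolism had 1 of 25 genes higher and 2 lower (12%, beside 7.16% of all genes tested). *Pepck1* and *Pepck2*, which encode phosphoenolpyruvate carboxykinases, moved apart. *Pepck2* was at 579 and 580 in R1, 379 and 252 in R2, 368 and 422 in S1, and 2021 and 1962 in S2, and S2 alone was high, so the pooled -1.07 ± 0.38 (adjusted p = 0.0938) was 0.10 without S2. *Pepck1* was lowest in S1 (1.10 and -0.04 for the pairs, 0.53 ± 0.09 over both, adjusted p = 0.000865, and -0.12 without S1). *sut1*, a sugar transporter gene, was lower in both resistant lines without overlap, with -0.65 ± 0.16 (adjusted p = 0.0165), and it was not called without S2 (-0.50).

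Among hormone and fat body genes, *Jhe*, which encodes the esterase that degrades juvenile hormone, had a Signal of 72 and 43.7 in R1, 84.6 and 68.8 in R2, 93.9 and 109 in S1, and 430 and 483 in S2. All resistant arrays were below the sensitive ones, with S2 highest. The difference was -1.72 ± 0.30 (adjusted p = 0.00157), -0.85 and -2.58 for the pairs, and it was -0.63 and not called without S2. The juvenile hormone and ecdysone list had 1 of 16 genes lower, *Jhe*, and 1 higher, *Eip63E* (0.23 ± 0.07, adjusted p = 0.0458), whose call was lost without R1 (0.15), without S2 (0.08) and in 3 of the 24 fits that left out 1 array. The fat body list had 2 of 5 genes higher, and its median was 0.42. Called shares of these lists were 12.5% and 40%, beside 7.16% of all genes tested. *fit*, a gene of the fat body that is best known from females, had 232 and 281 in R1, 276 and 235 in R2, 7.03 and 5.5 in S1, and 79.5 and 81.4 in S2. No arrays overlapped, with a difference of 3.51 ± 0.22 (adjusted p = 7.09e-08), which was 1.83 on the log2(Signal + 50) scale. S1 was far below 50, and without S1 the difference was 1.66 and not called. The other was the yolk protein gene *Yp1*, whose Signal in these males was 2.97 to 27.3 in resistant and 1.67 to 20.2 in sensitive lines, below the level of the filter, and on the log2(Signal + 50) scale its difference was 0.08. Females of these lines had 15210 to 21650, so *Yp1* could pass the filter through the female arrays alone. It was called lower without R2 (-1.06) and without S1 (-1.11), so its direction in males is not settled.

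Stress and antioxidant genes were called in both directions, at 17.6% of heat-shock genes and 30% of antioxidant genes beside 7.16% of all genes tested. Heat-shock proteins had 1 of 17 genes higher, *stv* (0.33 ± 0.09, adjusted p = 0.0244), a co-chaperone gene, and 2 lower, *Hsp68* (-0.43 ± 0.15, adjusted p = 0.082) and *l(2)efl* (-0.27 ± 0.09, adjusted p = 0.0794). The call of *stv* was lost in 16 of the 24 fits that left out 1 array, and those of *Hsp68* and *l(2)efl* in 4 each. For *l(2)efl* 2 more probe sets were called and differed more, by -0.50 ± 0.10 (adjusted p = 0.00285, 0.24 and -1.24 for the pairs) and -1.52 ± 0.41 (adjusted p = 0.0278, 0.19 and -3.22). Antioxidant enzymes and peroxiredoxins had 2 of 10 genes higher and 1 lower. *Prx6c* had 1318 and 1680 in R1, 382 and 252 in R2, 431 and 364 in S1, and 3957 and 4050 in S2. The pairs ran in opposite directions, 1.91 and -3.69 (adjusted p of the difference = 4.32e-06), and the pooled difference was -0.89 ± 0.25. *Prx3* (0.24 ± 0.07) and *Prx6a* (0.25 ± 0.08) had adjusted p-values of 0.0523 and 0.0575. All 3 called antioxidant genes had opposite signs in the pairs. With only the 8 male arrays in the fit, 0 of the list were higher and 1 was lower. The only Turandot gene that could be tested, *TotC*, a stress-induced humoral factor, had 86.4 and 60.3 in R1, 642 and 4769 in R2, 2133 and 1144 in S1, and 870 and 657 in S2. R1 was low and 1 pool of R2 was high, the pairs gave -4.44 and 1.21, and the pooled -1.61 ± 0.65 (adjusted p = 0.146) lost its call in 20 of the 24 fits that left out 1 array.

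Proteasome subunits had 3 of 39 genes lower and 0 higher, with a median of -0.24. That share, 7.69%, was near the 7.16% of all genes tested. *Prosalpha6*, a core subunit gene, had 1398 and 1293 in R1, 1079 and 1102 in R2, 1870 and 1604 in S1, and 2034 and 2132 in S2. It was lower without overlap, with -0.65 ± 0.08 (adjusted p = 5.63e-05), -0.37 and -0.93 for the pairs. *Prosalpha4* (-0.38 ± 0.08, adjusted p = 0.00855) and *Rpn2* (-0.24 ± 0.07, adjusted p = 0.0459) were high in S2 alone. Without S2 none of the 39 was called. Pigmentation and cuticle genes had 2 of 47 higher and 5 lower (14.9%), but 9 higher and 2 lower without S1. *Cpr72Ec*, a cuticle protein gene, had 1352 and 942 in R1, 312 and 217 in R2, 2154 and 1525 in S1, and 1452 and 1239 in S2, with R2 lowest and a difference of -1.52 ± 0.21 (adjusted p = 0.000255), which was -0.47 and not called without R2. *Cht7*, a chitinase gene, was high in S1 (-1.04 ± 0.22, adjusted p = 0.00557, and -0.34 and not called without S1), and *Cpr100A* (-0.72 ± 0.19) and *Gld*, the glucose dehydrogenase gene (-0.59 ± 0.14), had adjusted p-values of 0.0274 and 0.0165. The call of *Gld* was lost in 16 of the 24 fits that left out 1 array.

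Several lists of abundant or tissue-bound transcripts had no called gene. These were 25 accessory gland protein genes, 22 muscle genes, 40 cytoplasmic ribosomal protein genes and 22 chorion, vitelline membrane and maternal genes. Their medians were 0.15, 0.01, 0.03 and -0.12. Genes of the last list could pass the filter through the female arrays alone. The median Signal over the 8 male arrays of the resistant and sensitive lines was 4.70 in *Cp16*, 9.13 in *Vm26Aa*, 6.11 in *osk* and 9.66 in *Cp36*. In females of the same lines it was 1740, 8503, 9552 and 5597. *Cp15* (74.5) and *grk* (372.6) had higher male medians. For genes below the filter level in males, a missing call cannot show whether the resistant and sensitive males differed. For muscle, the median was -0.19 for R1 minus S1 and 0.34 for R2 minus S2, and 7 genes were higher without S1 and 5 after quantile normalization. Of the accessory gland genes, 4 were higher with only the 8 male arrays in the fit. Of 39 testis and sperm genes 1 was higher, *blanks* (2.56%, beside 7.16% of all genes tested). Of 80 genes of oxidative phosphorylation 1 (1.25%) was lower, *ND-ACP* (-0.34 ± 0.14, adjusted p = 0.154), with opposite signs in the pairs. Another probe set of this gene was called (-0.50 ± 0.15, adjusted p = 0.0516, -1.10 and 0.09 for the pairs). A further one was not (-0.28 ± 0.15, adjusted p = 0.314, -0.76 and 0.21). The median of the 80 genes was -0.39 between R1 and S1 and 0.09 between R2 and S2. The count was 32 lower without S1 female replicate 1 and 16 without S1 female replicate 2. The summed Signal of the 3 flight muscle markers was 2511 and 55320 in those pools, and the part of muscle in this count was not tested. With only the 8 male arrays in the fit it was 3 lower.

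Beyond these families, the genes with the largest differences included several of unknown or only predicted function. *CG17752*, a predicted transporter of organic ions, had 1371 and 1732 in R1, 2180 and 2285 in R2, 577 and 553 in S1, and 281 and 301 in S2. It was higher in the resistant males without overlap, by 2.19 ± 0.09 (adjusted p = 4.01e-10), and both resistant lines exceeded the controls, which had 1125 and 1140 in C1 and 989 and 885 in C2, while both sensitive lines were below them. *Alp2*, an alkaline phosphatase gene, had 1712 and 2044 in R1, 2656 and 2522 in R2, 696 and 765 in S1, and 478 and 449 in S2. Its arrays did not overlap, with 1.92 ± 0.15 (adjusted p = 6.25e-07), 1.36 and 2.48 for the pairs. *CG30083* had 161 and 86.3 in R1, 337 and 335 in R2, 23.2 and 21.1 in S1, and 25.3 and 51.4 in S2, again without overlap. It differed by 2.82 ± 0.50 (adjusted p = 0.00179) and by 1.69 on the log2(Signal + 50) scale, and the pairs did not differ past the threshold (2.41 and 3.22, adjusted p = 0.771). *CG15263* had 1977 and 1770 in R1, 1261 and 2273 in R2, 1224 and 590 in S1, and 134 and 149 in S2, and without S2 its 2.36 ± 0.36 (adjusted p = 0.000491) was 1.07 and not called.

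On the lower side, *CG33109* had a Signal of 132 and 121 in R1, 200 and 187 in R2, 2776 and 2066 in S1, and 342 and 241 in S2. S1 was far above the other 3 lines and the arrays did not overlap, with -2.41 ± 0.18 (adjusted p = 6.25e-07), -4.25 and -0.57 for the pairs, and -0.88 without S1, where it was still called. The controls, with 1629 and 1216 in C1 and 2125 and 1801 in C2, were near S1. *CG4250* had 892 and 865 in R1, 364 and 275 in R2, 1457 and 1964 in S1, and 1777 and 1809 in S2, without overlap and lowest in R2. Its difference was -1.72 ± 0.21 (adjusted p = 6.37e-05), and it was -0.99 and not called without R2. *CG13422*, paired with its probe set through the study's tables, had 1028 and 1470 in R1, 300 and 253 in R2, 1179 and 1322 in S1, and 7940 and 10466 in S2. R1 and S1 overlapped (-0.02), and the difference of -2.54 ± 0.21 (adjusted p = 1.28e-06) came from R2 and S2 (-5.05). *CG32751*, at 18.5 and 4.52 in R1, 19.5 and 4.34 in R2, 105 and 77 in S1, and 18 and 53.8 in S2, was below 50 in the resistant males, and its -2.53 ± 0.59 (adjusted p = 0.0117) was -0.82 on the log2(Signal + 50) scale. *Lectin-galC1*, a galactose-binding lectin gene, had a difference of -1.63 ± 0.25 (adjusted p = 0.000512), and its call was lost in 15 of the 24 fits that left out 1 array (-1.86 to -1.40). *CG10725* (-1.57 ± 0.40, adjusted p = 0.0188) was not called without S2 (-0.71).

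Of the 24 genes with the largest differences, 21 were called in each fit that left out 1 array, and 11 in each fit that left out 1 line. The 11 were *Jon99Fi*, *CG18095*, *CG30083*, *Jon66Ci*, *CG17752*, *Cyp4e3* and *Alp2*, which were higher, and *CG13422*, *CG32751*, *CG33109* and *Cyp6a23*, which were lower. With line as a random block 5 of the 11 passed (*CG30083*, *Jon66Ci*, *CG17752*, *Cyp4e3* and *CG33109*), and *CG32751* was not called with only the 8 male arrays in the fit. Of the 94 named probe sets that were called, 9 passed with that block, these 5 and *fit*, *CG6660*, *MtnD* and *Prosalpha6*. It left calls in 7 of the 31 lists, which were 1 higher among P450s, metallothioneins, the fat body list and digestive proteases each, and 4 lower in fatty acid metabolism, 2 lower in proteasome subunits and 1 lower among glutathione S-transferases. Without S2, 8 of the 24 lost their call. Without R2 it was 5, without R1 it was 4 and without S1 it was 2.

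In some of these genes 1 of the 4 selected lines stood apart from the other 3. *CG18095* had 348 and 448 in R1, 304 and 291 in R2, 2.69 and 6.85 in S1, and 262 and 294 in S2. Only S1 was low, with 6.52 for R1 and S1 and 0.10 for R2 and S2, and the pooled difference was 3.31 ± 0.24 (adjusted p = 4.47e-07). *mthl8*, a gene of the methuselah-like receptor family, had 211 and 182 in R1, 150 and 139 in R2, 6.13 and 6.14 in S1, and 124 and 144 in S2. S1 was again low, and so was C1 among the controls, which had 31.6 and 23.1 in C1 and 136 and 117 in C2. The difference was 2.56 ± 0.23 (adjusted p = 3.83e-06), and without S1 it was 0.33 and not called. A second probe set of *mthl8* gave 2.80 ± 0.25. *lncRNA:CR33218*, a noncoding RNA gene, had 50.7 and 121 in R1, 892 and 827 in R2, 802 and 933 in S1, and 829 and 941 in S2, where only R1 was low, and its -1.75 ± 0.32 (adjusted p = 0.00232) was -0.02 without R1. *CG13313* had 76.4 and 118 in R1, 3.79 and 6.14 in R2, 156 and 119 in S1, and 284 and 222 in S2, where R2 was far below 50, and the controls had 41.3 and 2.84 in C1 and 74 and 38.4 in C2. Its -3.11 ± 0.59 (adjusted p = 0.00297) was -0.96 without R2 and not called.

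Over all tested probe sets, 38 were below a Signal of 50 on both male arrays of S2 and above it on all arrays of the other 3 lines, against 17 for S1, 19 for R1 and 19 for R2. Those of them that were more than 4-fold below the other lines and called numbered 8 for S2 and 9 for S1, but 1 for R1 (*Zip102B*, a zinc transporter gene) and 2 for R2 (*CG13313* and *Srg2*). *Zip102B* (-1.40) and *Srg2* (-1.12) were singled out after their values were seen.

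The differences of the line pairs had the same sign for 609 of the 867 probe sets and opposite signs for 258, and a call on the mean of both pairs favours like signs. The line pairs differed from each other for 1088 tested probe sets (9.18%) at an adjusted p under 0.05, and for 365 of the 867 called ones, 222 of which had differences of opposite sign. The largest of these was *CG30017*, paired with its probe set through the study's tables, at 114 and 143 in R1, 285 and 269 in R2, 213 and 181 in S1, and 1.57 and 3.95 in S2. S2 alone was far below 50, the pairs gave -0.62 and 6.80, and without S2 the pooled 3.09 ± 0.26 was -0.06. *CG9509*, an oxidoreductase gene also named through those tables, was the mirror image, at 3333 and 4316 in R1, 1936 and 2380 in R2, 34.9 and 33.5 in S1, and 2972 and 2880 in S2. S1 alone was low, with 6.79 and -0.45 for the pairs, a pooled 3.17 ± 0.14 (adjusted p = 4.01e-10) and -0.04 without S1. In control males *CG9509* was at 4213 and 4505 in C1 and 3357 and 3732 in C2, above R2 and S2.

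In relation to the controls, the mean of the 2 control lines lay between the resistant and the sensitive means for 496 of the 867 probe sets. It was above both for 226 and below both for 145. In *Cyp4e3* the control lines, with 108 and 94.6 in C1 and 274 and 295 in C2, overlapped both groups. By chromosome arm, 6.04% of tested probe sets were called on X, 7.31% on 2L, 7.7% on 2R, 7.62% on 3L, 6.8% on 3R and 7.14% on chromosome 4.

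Most differences in males had the same sign in females of the same lines. This held for 808 of the 867 probe sets, and for 66.7% of all tested probe sets. Both sexes entered the line effect, so that a called probe set was favoured where the sexes moved alike. The difference itself differed between the sexes for 50 tested probe sets (0.422%) at an adjusted p under 0.05, of which 24 were among the 867. In 8 of the 24 the difference was larger in males with the same sign, in 6 it was larger in females with the same sign, and in 10 the signs were opposite.

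**Figure D5:**
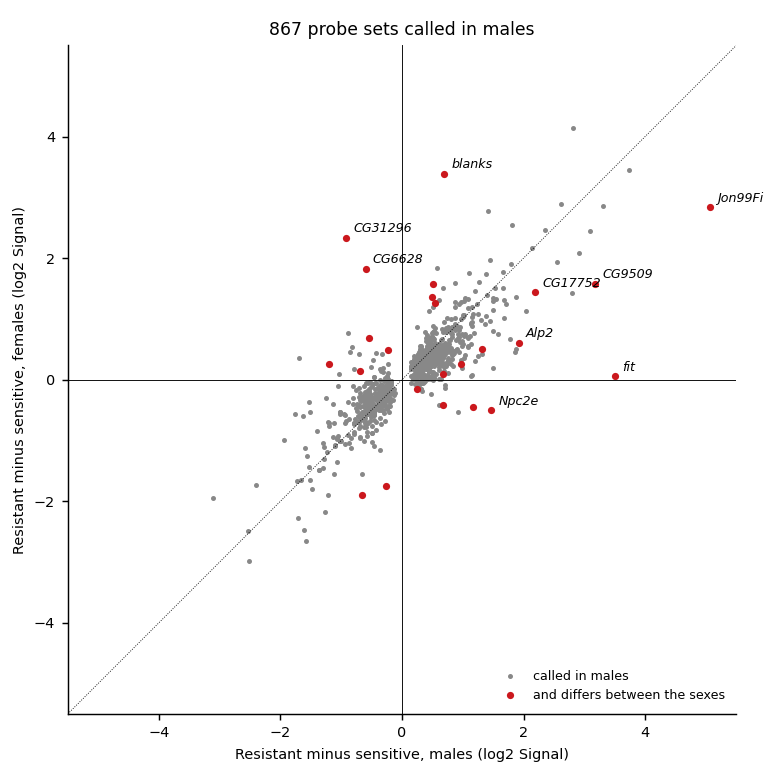
Resistant minus sensitive difference in females (vertical axis, log2 Signal) against that in males (horizontal axis, log2 Signal) for the 867 probe sets called in males, with a dotted line where both are equal. The 24 probe sets in red differed between the sexes, with *fit* and *Npc2e* far from the line on the male side and *blanks*, *CG31296* and *CG6628* on the female side.

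*fit* showed the largest of these. In females its Signal was 1530 and 2380 in R1, 750 and 563 in R2, 468 and 925 in S1, and 1358 and 2216 in S2. The female lines overlapped and differed by 0.06 ± 0.22, whereas males differed by 3.51 ± 0.22, and the difference between the sexes was 3.45 ± 0.31 (adjusted p = 3.78e-05). *Jon99Fi* differed by 2.84 ± 0.21 in females, with S2 again lowest at 17178 and 15510 in R1, 11045 and 11964 in R2, 12704 and 10413 in S1, and 360 and 283 in S2, and the difference between the sexes was 2.23 ± 0.30 (adjusted p = 0.00177). *Alp2* (0.61 ± 0.15 in females, 1.31 ± 0.21 between the sexes, adjusted p = 0.00665) and *CG17752* (1.44 ± 0.09, 0.75 ± 0.13, adjusted p = 0.0137) were also farther apart in males. *Npc2e*, of a family of sterol-binding proteins, had 229 and 158 in R1, 143 and 205 in R2, 96.6 and 109 in S1, and 51.7 and 33.4 in S2 in males. It was higher in resistant males without overlap, by 1.47 ± 0.23, but differed by -0.50 ± 0.23 in females (difference 1.97 ± 0.32, adjusted p = 0.00747). Its call in males was lost in 8 of the 24 fits that left out 1 array (1.31 to 1.62).

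*blanks*, which encodes an RNA-binding protein of the testis, had 2173 and 2474 in R1, 1904 and 2141 in R2, 1528 and 1612 in S1, and 1158 and 1121 in S2 in males. Resistant males were higher without overlap, by 0.69 ± 0.16 (adjusted p = 0.0128). In females its Signal was 368 and 366 in R1, 223 and 214 in R2, 42.8 and 53.8 in S1, and 21.5 and 10.9 in S2, far below that of males, so that the difference of 3.39 ± 0.16 there is one between lower values (difference between the sexes -2.69 ± 0.23, adjusted p = 3.75e-05). *CG31296* was lower in resistant males, at 89.5 and 85.9 in R1, 105 and 110 in R2, 240 and 213 in S1, and 146 and 152 in S2, and higher in resistant females by 2.33 ± 0.27 (difference -3.25 ± 0.38, adjusted p = 0.00052). Its difference in males was -0.92 ± 0.27 (adjusted p = 0.0444), and the call was lost without S2 male replicate 1, S2 male replicate 2 or S2 female replicate 2 (-0.96 to -0.88 over the 24 fits). The call was also lost without S1 (-0.62), without S2 (-1.22), with only the 8 male arrays in the fit and on the log2(Signal + 50) scale (-0.67). *CG6628* had -0.60 ± 0.27 in males (adjusted p = 0.213) and 1.83 ± 0.27 in females, and its call in males was lost in 14 of the 24 fits.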

How the data were processed

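Affymetrix Drosophila Genome 2.0 arrays were hybridized with whole-body RNA of 6 lines and both sexes, with 2 pools for each line and sex (24 arrays). The deposited values are the Signal of each probe set, an intensity on a linear scale that the authors computed with MAS5 from 14 perfect-match and mismatch pairs and scaled to 500. The trimmed mean of every array, with 2% taken off at each end, was 500.0. Of 18952 probe sets, 183 controls were left out. The log2 of Signal, with a floor of 1, was fitted with limma 3.58.1 (R 4.3.3), with a mean for each of 12 groups of line and sex over all 24 arrays and an intensity trend in the prior variance. Probe sets with a Signal of at least 50 on at least 12 arrays were tested (11857). The call rule follows the study's methods, with a first step at an adjusted p of 0.001 (Benjamini-Hochberg) and a contrast at p of 0.05. Differences between line pairs and between sexes used an adjusted p of 0.05. Labels give separate pools but not separate cultures, so p-values measure the spread between pools, and the number of arrays limits the precision.

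Genes were named by rank, with the 12 largest differences at each end among calls whose line means lay on 1 side, the 6 largest opposite line pairs, the 6 largest sex differences, and up to 4 called members of each of 31 gene lists, represented by 1 probe set each. The lists and members were chosen with earlier results of these data known. *Jon74E*, *Ser7*, *GstE5*, *AttA*, *Vmat*, *Zip102B* and *Srg2* were singled out after their values were seen. Names came from the platform annotation, which gave 1 symbol to 13646 probe sets, several to 402 and none to the others. For 146 of these the study's tables gave the name (among them *CG13422*, *CG30017*, *CG9509*, *IM23*, *Aldh* and *AttA*). Alternatives changed the arrays in the fit, the call rule, the scale, the filter, the normalization, the variance model, the test, a replicate block, and the arrays or lines left out.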

Additional observations from a re-analysis of the deposited data

Results flagged for a closer look

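Among the groups of 4 arrays of named probe sets, 7 of 194 (3.61%) held 1 array apart from the other 3 by Dixon's criterion, where the gap to the nearest array is divided by the range of the 4. The criterion flags about 1 in 20 groups by chance if all 4 arrays come from 1 population. Here each group joined pools of separate lines, so the share flagged cannot be compared with that rate. In *CG6660* the second S1 pool was low among sensitive males (0.848), in *Gld* the second S2 pool (0.87) and in the probe set of *Adh* and *Adhr* the first S2 pool (0.849). In *bond*, a fatty acid elongase gene, the first S1 pool was high (0.946). Among resistant males, the first R2 pool was low in *CG10725* (0.977), the first R1 pool in *Pepck1* (0.854) and the second R1 pool in *FASN2* (0.977).

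The resistant minus sensitive difference was tested between males and females, and 50 probe sets passed. Among the named genes the male difference exceeded the female one by 3.45 in *fit*, 2.23 in *Jon99Fi*, 1.97 in *Npc2e*, 1.59 in *CG9509*, 1.31 in *Alp2* and 0.75 in *CG17752* on the log2 scale. It was below the female one, by -3.25 in *CG31296*, -2.69 in *blanks* and -2.42 in *CG6628*.

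The difference of the line pairs in males, R1 minus S1 less R2 minus S2, was tested as well, and 1088 probe sets passed. Of the genes whose pairs ran in opposite directions, it was 7.24 in *CG9509*, 5.62 in a probe set of *mthl8*, 5.60 in *Prx6c* and 4.84 in *IM23*, and -7.42 in *CG30017* and -5.65 in *TotC*.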

How the results depend on the processing

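The 867 calls became 549 (370 shared) with only the 8 arrays compared, 473 (346 shared) with the 12 male arrays, 193 at an adjusted p of 0.001 in the contrast alone, 58 at an adjusted p of 0.05 with line as a random block and no first step (1085 in the same test without that block), and 462 without S2. The 485 calls with line means on 1 side became 269 and 230 in the first of these fits, 155, 58, 864 at an adjusted p of 0.05 in the contrast alone, and 1117 without S1. The 1088 line pair differences became 1916 with the 8 and 1657 with the 12 male arrays. The 50 sex differences became 94 on the log2(Signal + 50) scale, 3 with line as a random block, 245 with the methods' analysis of variance on Signal and 192 without S1. Over the 24 fits without 1 array, the calls ran from 596 to 1269, those with line means on 1 side from 352 to 708, line pair differences from 651 to 1572 and sex differences from 31 to 113. Line means passed for 0 probe sets under all 4 alternatives, and for 0 to 2 without 1 array (2 without S1 male replicate 2). Other alternatives kept these counts within 1.5 times. The cause of these changes was not tested.

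Replicate numbers did not pair the samples. Deviations of arrays of the same number correlated at -0.0396 to 0.0795, and with a replicate block the counts were 816 (787 shared), 451, 1041 and 51.

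Among named probe sets called in the main fit or in the alternative, the difference of 23 turned its sign. In 4 of them it did so under 2 alternatives. Without S2 it was 0.000999 in *BomT2*, -0.0621 in *CG30017*, 0.257 in *IM23*, -0.122 in *Jon44E*, 0.102 in *Pepck2*, -0.0505 in *Prx3*, 0.778 in *Prx6c*, 0.0677 in *Rpn2*, -0.104 in *Syn* and 0.0187 in *tim*. Without S1 it was -0.0361 in *CG9509*, -0.231 in *GstE14*, 0.206 in *ND-ACP*, -0.118 in *Pepck1*, -0.0105 in *Prx6a*, -0.0198 in *Ugt301D1*, -0.166 in *Ugt37D1* and -1.11 in *Yp1*. Without R1 it was -0.138 in *GstD2*, 0.132 in *Octbeta1R* and 0.687 in *TotC*. Without R2 it was 0.0804 in *PGRP-SB1*, 0.241 in *Prx6c*, -1.06 in *Yp1*, 0.447 in *cwo* and 0.0131 in *tim*. In the analysis of variance on Signal, *TotC* was higher by 189.

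With 2 lines for each direction of selection, the error of the main contrast holds no spread between lines. Levels under a Signal of 50 are poorly ordered, and their log2 differences depend on the scale.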
